A study of Mus musculus with 130 samples.

Results

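The comparison described here sets cells sorted in the G1-S gate (YE in the labels) against cells sorted in the G1 gate (DR), both from mouse embryos of the strain FVB/NJ with the FUCCI reporter. Its members were chosen by label: the G1 and G1-S libraries of preparations WT1, WT2 and WT3, which make 6 of the 25 libraries of the series and 44 of its 130 deposited columns. WT1 and WT2 were embryos of E10.5 and WT3 of E11.5, so each gate had n = 3 preparations. All groups carried the same reporter on the same strain, and no treatment or deletion is given. The S-G2-M gate (GR) of the same preparations, and the G1 and G1-S gates of preparations 5 and 8 at E13.5, are used below only for comparison. Whole embryos were dissociated, so every gate holds many cell types. How many embryos went into a preparation is not stated in the labels, and the p-values measure the spread between these preparations, which may be partly technical.

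FUCCI reads out the cell cycle through protein destruction. A red reporter carries a fragment of Cdt1, the loader of the replicative helicase, and is destroyed in S phase. A green reporter carries a fragment of geminin, the inhibitor of Cdt1, and is destroyed from late mitosis through G1. Cells that pass from G1 to S phase hold both colours for a time and appear yellow. At this step cyclin E with Cdk2 and the E2F transcription factors, released from the Rb family of pocket proteins, drive the genes for nucleotides, helicase and polymerases, and the replication-dependent histone genes are switched on to package new DNA. Most genes of mitosis are driven later, through B-Myb and FoxM1 at promoters with a CHR element.

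The 6 libraries held from 15648474 to 35506229 counts, and 36113 of 52550 genes had a count in at least 1 of them. Between 0.442% and 0.563% of counts came from mitochondrial DNA. Gm26917 and Gm42418, which hold ribosomal RNA-like sequence, took 2.91% to 7.02%. Levels are given below as CPM, counts relative to library size after scaling by trimmed-mean (TMM) factors over all 25 libraries. CPM is not corrected for transcript length, so levels are compared between libraries and not between genes. In RNA from mixed cells, more cells of a type and more RNA per cell cannot be told apart.

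The upstream sequences of 7 genes that rose in G1-S are shown first. The motifs written in capitals recur in the replication, mitosis and histone gene groups. The 7 genes were chosen after their values and motifs had been seen. Each run is the 120 bases before the transcription start in RefSeq on GRCm38.p6, 5′ to 3′ on the gene's own strand. Hells, E2f7 and Gins3 show E2F-type motifs, Gins3 also a CHR motif, Kif11, Cdc20 and Ube2c show CHR motifs, and Hist1h2bk shows an octamer core. CCAAT, bound by NF-Y, is in capitals wherever it occurs on either strand.
Hells: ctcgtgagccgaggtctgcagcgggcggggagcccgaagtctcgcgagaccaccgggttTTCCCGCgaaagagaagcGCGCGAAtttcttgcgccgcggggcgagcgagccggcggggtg
E2f7: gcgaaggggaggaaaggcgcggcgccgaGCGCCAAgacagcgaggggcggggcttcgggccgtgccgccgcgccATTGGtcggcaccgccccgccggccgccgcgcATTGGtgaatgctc
Gins3: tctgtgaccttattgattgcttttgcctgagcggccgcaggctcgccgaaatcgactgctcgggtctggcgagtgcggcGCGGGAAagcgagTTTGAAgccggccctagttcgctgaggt
Kif11: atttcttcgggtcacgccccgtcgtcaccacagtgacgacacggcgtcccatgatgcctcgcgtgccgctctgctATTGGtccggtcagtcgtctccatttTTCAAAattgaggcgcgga
Cdc20: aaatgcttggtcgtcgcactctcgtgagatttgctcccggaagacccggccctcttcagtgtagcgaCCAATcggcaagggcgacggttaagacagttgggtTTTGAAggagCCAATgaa
Ube2c: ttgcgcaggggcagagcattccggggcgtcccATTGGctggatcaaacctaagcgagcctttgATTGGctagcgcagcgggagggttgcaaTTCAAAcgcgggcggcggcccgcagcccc
Hist1h2bk: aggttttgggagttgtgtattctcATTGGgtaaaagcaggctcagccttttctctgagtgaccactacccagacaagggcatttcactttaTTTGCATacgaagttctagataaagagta
These stretches lie at chr19:38930870-38930989 for Hells, chr10:110745319-110745438 for E2f7, chr8:95633439-95633558 for Gins3, chr19:37376262-37376381 for Kif11, chr2:164769809-164769928 for Ube2c and chr13:22035701-22035820 for Hist1h2bk, all on the plus strand. The stretch of Cdc20 lies at chr4:118437344-118437463 on the minus strand.

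Motifs were searched on both strands in 300 bases, 250 before to 50 after each start, with any overlap allowed. The E2F-type motif was TTCCCGC, or the variant TTGGCGC, or the variant TTCGCGC, or the variant TTGCCGC. The CHR motif was TTTGAA, or the variant TTCGAA. The CCAAT box was searched as written, and the octamer core as TTTGCAT. A gene with several promoters counted once. An E2F-type motif was present in 10 of 14 homologous recombination genes (71.4%), 14 of 21 replisome genes (66.7%), 6 of 9 condensin genes (66.7%) and 12 of 20 licensing genes (60.0%) with a promoter in the table. Over all 27025 genes with a promoter the share was 10.9%. A CHR motif was present in 19 of 22 mitotic kinesin and spindle genes (86.4%) and 14 of 20 kinetochore genes (70.0%), against 21.7% of all genes. It was also present in 8 of 9 condensin genes (88.9%) and 9 of 13 mitotic cyclin, kinase and switch genes (69.2%). Of 61 replication-dependent histone genes 29 had a CHR motif (47.5%) and 18 an E2F-type motif (29.5%). The motifs thus did not divide these groups cleanly. The octamer core was present in 15 of 61 replication-dependent histone genes (24.6%) and CCAAT in 52 of them (85.2%), against 5.24% and 41.1% of all genes. Of 18 cardiac genes with a promoter 1 had an E2F-type motif (5.56%) and 3 a CHR motif (16.7%). Of 18 neuronal genes 2 had each motif (11.1%). Of 13 Notch and proneural genes 3 had an E2F-type motif (23.1%) and 1 a CHR motif (7.69%). CCAAT was present in 55.6% to 61.5% of the genes in these lists. A match describes the letters in this window and does not show a binding site.

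Of 22083 genes tested, 1693 (7.67%) differed between the gates at an adjusted p under 0.05 by edgeR's quasi-likelihood test with Benjamini-Hochberg adjustment, paired by preparation. In G1-S 969 genes were higher (4.39%) and 724 were lower (3.28%), and the median log2 change of all genes was -0.02. The groups that rose were histone, replication and mitosis genes and markers of heart muscle, vessels and macrophages. The groups that fell were neuronal and proneural genes. The 8 highest rises among well-expressed genes were 5 histone genes and 3 genes of the heart muscle sarcomere. The 8 strongest falls were all of genes known from the developing nervous system. Without WT1 734 genes passed, without WT2 4812 and without WT3 1079, so the count depended strongly on which preparations were in the test. Of the 1693 genes, 1665 also passed without WT2.

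**Figure D1:**
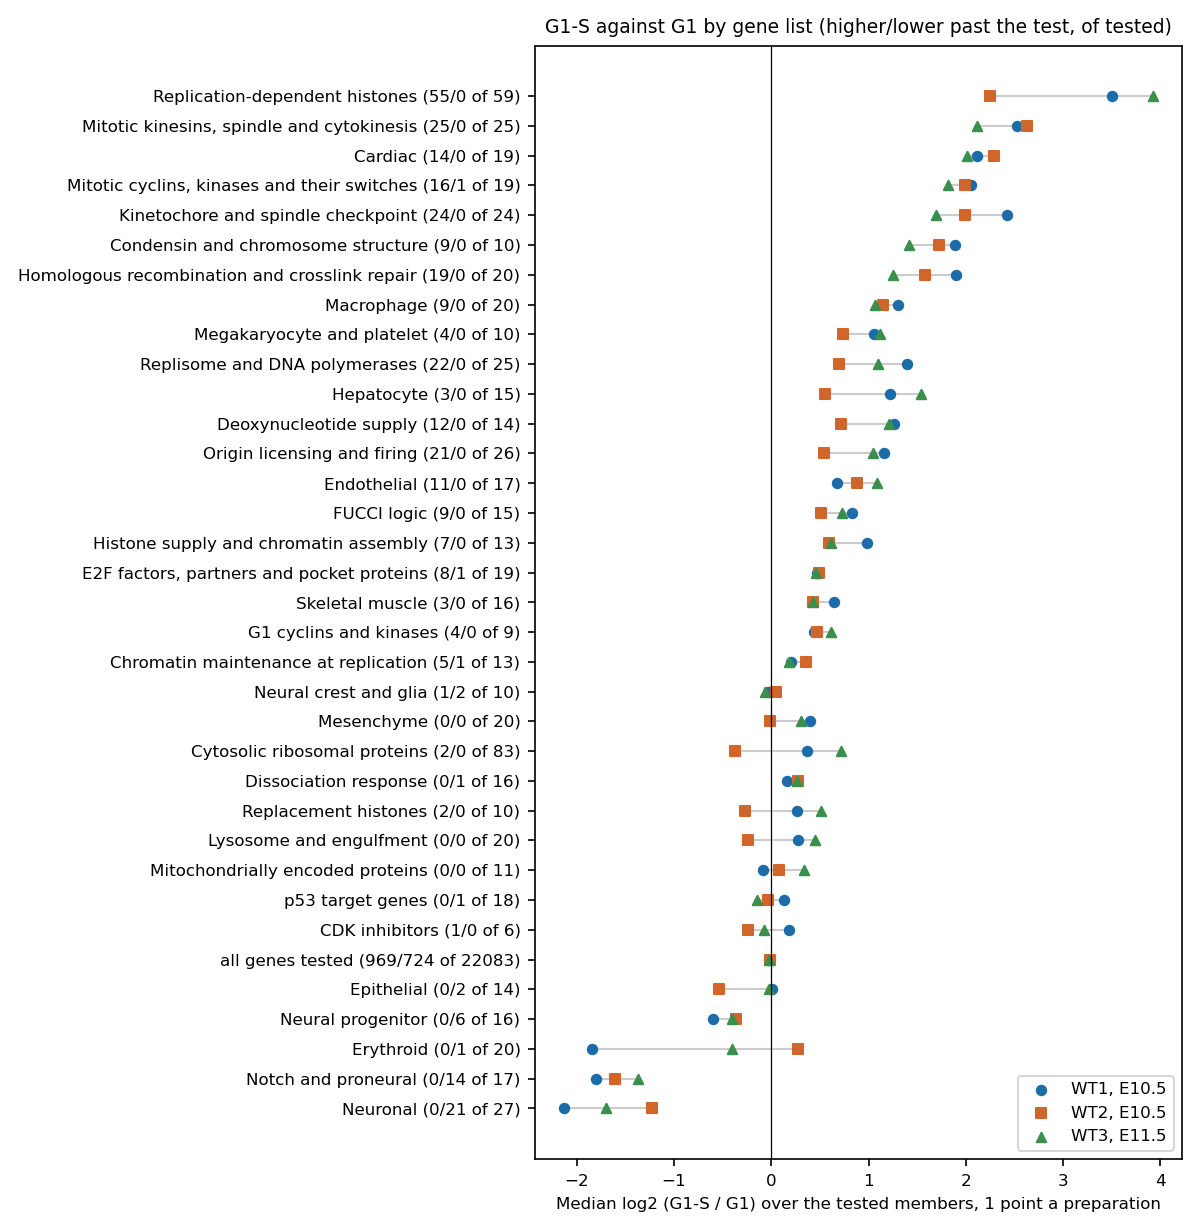
Median log2 change from G1 to G1-S over the tested members of each gene list (y axis), with 1 point for each preparation and a grey line over their range. In brackets are the members higher and lower past the test, of those tested. Histones, mitosis and cardiac lists lie to the right in all 3 preparations, neuronal and proneural lists to the left, and the histone point of WT2 (2.25) lies below those of WT1 (3.50) and WT3 (3.92).

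Replication-dependent histone genes, whose mRNAs end in a stem-loop instead of a poly(A) tail and are made for S phase, had the largest median change of the 34 lists. Of 67 such genes 59 were tested, 55 rose and none fell, with a median log2 change of 3.32. Their summed level was 1504, 2189 and 1291 CPM in the G1 libraries of WT1, WT2 and WT3. It was 15474, 9745 and 19383 CPM in the G1-S libraries. All G1-S libraries lay above all G1 libraries, and WT2 had both the highest G1 and the lowest G1-S sum.

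Hist1h2bk, a copy of histone H2B, stood at 19.4, 30.9 and 25.7 CPM in G1 and at 380, 220 and 559 CPM in G1-S. Its log2 change was 3.87 ± 0.28 (SE, n = 3 pairs, edgeR adjusted p = 1.1e-06). Hist1h3g, a copy of histone H3, stood at 18.3, 38.4 and 30.3 CPM in G1 and at 391, 248 and 562 CPM in G1-S, a log2 change of 3.79 ± 0.29. The other leading copies were Hist1h2an at 3.91 ± 0.39, Hist1h2ah at 3.82 ± 0.31 and Hist1h2bp at 3.77 ± 0.27. In each of these 5 genes the gates did not overlap, as in 12.1% of all tested genes with G1-S higher, and WT2 had the lowest level in G1-S. The start sites of Hist1h2bk and Hist1h2ah face away from each other, and the stretch printed for Hist1h2bk partly overlaps the matching stretch of Hist1h2ah. Near-identical histone copies can share reads, and 35.6% of the exon bases of Hist1h2ah and 35.9% of those of Hist1h2an overlap a gene on the other strand, so values of single copies are uncertain.

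Of the 4 tested histone genes that did not pass, Hist3h2a had a log2 change of -0.15, Hist2h2be of 0.72 and Hist2h2ab of 1.23. Histone supply genes moved less than the histones. Of 13 genes for histone mRNA processing, chaperoning and assembly 7 rose and none fell, with a median of 0.68. Slbp, which binds the stem-loop of histone mRNA, stood at 62.5, 83.7 and 81.5 CPM in G1 and at 179, 158 and 179 CPM in G1-S (log2 change 1.20 ± 0.16, edgeR adjusted p = 0.00024). Asf1b, a chaperone that delivers H3 and H4, rose by 2.05 ± 0.20. Npat, the coactivator of histone genes, was at 0.47 and did not pass.

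Among the activator E2Fs, E2f2 and E2f3 rose and E2f1 did not pass. E2f1 stood at 60.6, 52.7 and 57.1 CPM in G1 and at 78.7, 71.0 and 60.3 CPM in G1-S, a log2 change of 0.31 ± 0.16 that did not pass (edgeR adjusted p = 0.30). E2f2 stood at 18.5, 17.5 and 19.4 CPM in G1 and at 59.2, 48.7 and 48.7 CPM in G1-S, a rise of 1.5 ± 0.18 (adjusted p = 5.1e-05). E2f3 rose by 0.68 ± 0.15 (adjusted p = 0.012), but not when WT1 was left out. The gates of E2f1 overlapped, since the G1-S level of WT3 lay below the G1 level of WT1, and those of E2f2 and E2f3 did not. Over all tested genes 12.1% had G1-S higher without overlap.

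The atypical E2Fs, which repress E2F targets without a partner protein, also rose. E2f8 stood at 11.2, 11.5 and 16.1 CPM in G1 and at 57.7, 61.6 and 44.0 CPM in G1-S, a log2 change of 2.09 ± 0.22 (edgeR adjusted p = 1.5e-05). E2f7 stood at 35.0, 34.5 and 43.9 CPM in G1 and at 110, 123 and 105 CPM in G1-S, a change of 1.59 ± 0.17. In both genes the gates were separated by more than their range within a gate. E2f4 and E2f5, which act mainly with pocket proteins as repressors, were at 0.00 ± 0.17 and 0.36 ± 0.18 and did not pass, nor did E2f6 at 0.56 ± 0.17.

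Of the 19 E2F factors, partners and pocket proteins 8 rose, 1 fell and 10 did not pass, with a median of 0.48. Mybl2, which encodes B-Myb, stood at 23.9, 24.8 and 30.5 CPM in G1 and at 102, 99.0 and 86.5 CPM in G1-S, a rise of 1.87 ± 0.17. Foxm1 rose by 2.30 ± 0.21 and Lin54, the DNA-binding subunit of the complex that recruits B-Myb, by 1.14 ± 0.18. The dimer partners went opposite ways: Tfdp1 rose by 0.71 ± 0.15 and Tfdp2, at 282, 249 and 243 CPM in G1 against 179, 182 and 146 CPM in G1-S, fell by 0.61 ± 0.15 on the log2 scale (edgeR adjusted p = 0.025). Both calls were lost without WT1 and without WT3. The pocket protein genes Rb1 at -0.19 ± 0.17, Rbl1 at 0.46 ± 0.16 and Rbl2 at -0.32 ± 0.24 did not pass. Without WT2, 12 members of this list rose.

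Cyclin E genes rose and cyclin D genes did not pass. Ccne2 stood at 37.1, 52.2 and 54.3 CPM in G1 and at 162, 146 and 203 CPM in G1-S, a log2 change of 1.85 ± 0.17 (edgeR adjusted p = 5.3e-06). Ccne1 stood at 31.2, 49.6 and 44.7 CPM in G1 and at 124, 114 and 150 CPM in G1-S, a change of 1.65 ± 0.18. Their kinase Cdk2 rose by 0.90 ± 0.15 and Cdc25a, the phosphatase that activates it, by 0.70 ± 0.15, both of them not past the test without WT1, and Cdc25a also not without WT3. Ccnd1 was at 0.42 ± 0.17, Ccnd2 at -0.25 ± 0.16, Ccnd3 at 0.31 ± 0.15, Cdk4 at 0.09 ± 0.19 and Cdk6 at 0.29 ± 0.16. In all, 4 of 9 G1 cyclins and kinases rose and none fell.

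Of 6 tested genes for CDK inhibitors only Cdkn2c passed. Cdkn2c, an inhibitor of Cdk4 and Cdk6, stood at 3.57, 1.31 and 1.46 CPM in G1 and at 7.81, 6.28 and 8.03 CPM in G1-S, a rise of 1.95 ± 0.35 (edgeR adjusted p = 0.0021). Cdkn1a, the p53 target that blocks Cdk2, stood at 4.77, 5.54 and 5.32 CPM in G1 and at 5.59, 7.36 and 3.60 CPM in G1-S, a change of 0.05 ± 0.30 with overlapping gates. Cdkn1b was at -0.08 ± 0.16 and Cdkn1c at -0.46 ± 0.16, neither past the test. For Cdkn1c 30.7% of the exon bases overlap a gene on the other strand.

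**Figure D2:**
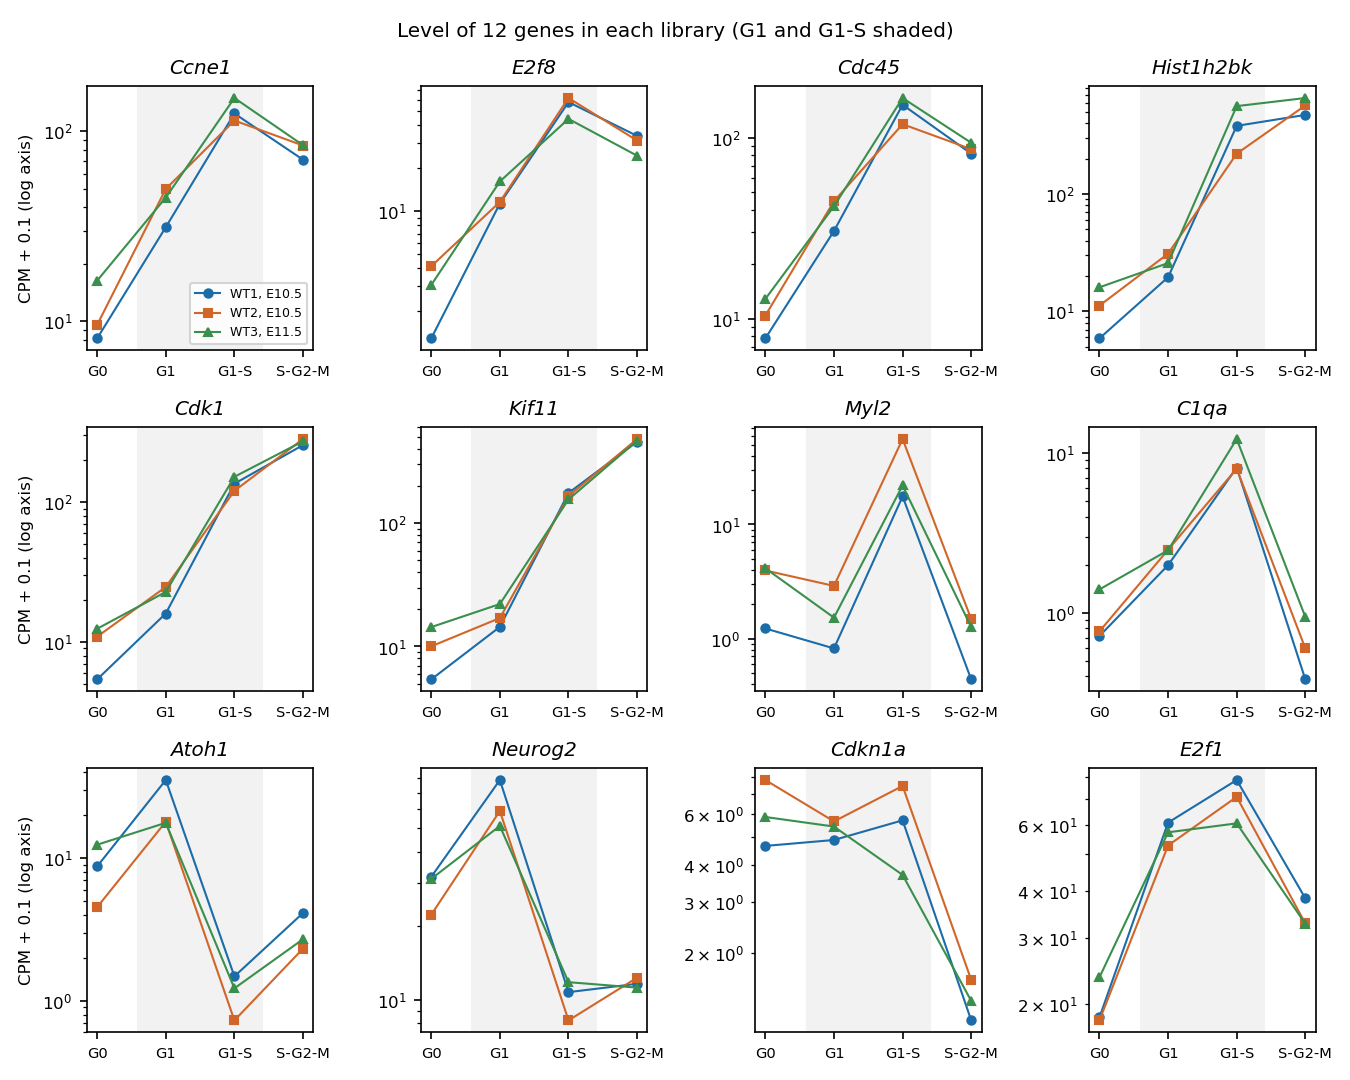
Level of 12 genes in the 4 sorted gates (x axis) as CPM plus 0.1 on a log axis, with 1 line for each preparation and the G1 and G1-S gates shaded. Ccne1, E2f8 and Cdc45 are highest in G1-S, Hist1h2bk, Cdk1 and Kif11 climb through G1-S to S-G2-M, Myl2 and C1qa are lower again in S-G2-M, and Atoh1 and Neurog2 drop from G1 to G1-S.

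Genes that load and fire replication origins were higher in G1-S. Of 26 such genes 21 rose and none fell, with a median of 0.96, and 25 were higher in all 3 preparations, as were 19.0% of all tested genes. Cdc45, a subunit of the active helicase, stood at 30.4, 44.5 and 41.8 CPM in G1 and at 153, 119 and 166 CPM in G1-S, a log2 change of 1.92 ± 0.19 (edgeR adjusted p = 7.7e-06). Mcm10, which helps to start the helicase, rose by 1.87 ± 0.18 and Gins3, a subunit of the same helicase, by 1.60 ± 0.21. The 5 genes that did not pass included Mcm2 at 0.27, Orc1 at 0.55 and Orc4 at -0.04. The number that rose was 10 without WT1 and 12 without WT3.

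The replisome followed the same direction. Of 25 genes for polymerases, clamp, clamp loader and fork proteins 22 rose and none fell, with a median of 1.05. Pcna, the sliding clamp, stood at 125, 190 and 169 CPM in G1 and at 439, 371 and 498 CPM in G1-S, a rise of 1.45 ± 0.19. Clspn, which links the fork to the checkpoint kinase, rose by 1.89 ± 0.20 and Rpa2, of the single-strand binding complex, by 1.41 ± 0.19. Without WT1 13 of the 25 passed. Rfc1 at 0.51, Rnaseh2a at 0.65 and Rpa3 at 0.80 did not pass.

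Of 14 genes for deoxynucleotide supply 12 rose and none fell, with a median of 0.99. Rrm2, the subunit of ribonucleotide reductase that is limiting in S phase, stood at 94.7, 144 and 150 CPM in G1 and at 473, 426 and 538 CPM in G1-S, a log2 change of 1.92 ± 0.18 (edgeR adjusted p = 6.3e-06). Tk1, thymidine kinase, rose by 1.70 ± 0.17 and Tyms, thymidylate synthase, by 1.54 ± 0.17. Rrm2b, the p53-dependent form of the reductase subunit, was at -0.68 and Samhd1, which breaks deoxynucleotides down, at 0.54, and neither passed. Without WT1 7 of the 14 passed.

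Homologous recombination and crosslink repair genes were almost all higher in G1-S. Of 20 genes 19 rose and none fell, with a median of 1.68, and all 20 were higher in all 3 preparations. Fancd2, the crosslink repair protein that is ubiquitinated at stalled forks, stood at 11.4, 11.9 and 16.7 CPM in G1 and at 58.9, 65.1 and 50.2 CPM in G1-S, a rise of 2.15 ± 0.21. Brip1, a helicase that binds Brca1, rose by 2.07 ± 0.18. Among 13 genes that maintain chromatin at forks 5 rose, with Uhrf1, the reader of hemimethylated DNA, at 1.30 ± 0.17 and Hells, a chromatin remodeller, at 0.98 ± 0.17. Tet2, a methylcytosine oxidase, fell.

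The RNAs behind the reporter's logic were not a readout of the gates, which are set by protein. Gmnn, which encodes geminin, stood at 21.6, 40.5 and 30.5 CPM in G1 and at 85.1, 73.7 and 103 CPM in G1-S, a log2 change of 1.54 ± 0.21 (edgeR adjusted p = 0.00019). Cdt1 stood at 60.6, 66.7 and 73.3 CPM in G1 and at 99.9, 110 and 115 CPM in G1-S, a rise of 0.71 ± 0.15 (adjusted p = 0.0074). The RNAs of both proteins were higher in G1-S, with gates that did not overlap, as in 12.1% of all tested genes with G1-S higher.

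The ligases that destroy the reporters also moved in part. Fbxo5, the inhibitor of the anaphase-promoting complex in S phase, stood at 19.1, 29.2 and 28.7 CPM in G1 and at 110, 111 and 142 CPM in G1-S, a rise of 2.26 ± 0.17. Skp2 and Dtl, the substrate receptors that direct Cdt1 to destruction, rose by 0.89 ± 0.16 and 0.92 ± 0.17. The scaffold genes Cul1, Cul4a and Cul4b lay between 0.12 and 0.17 and did not pass, and Fzr1, the G1 activator of the anaphase-promoting complex, was at 0.01 ± 0.18. In all 9 of these 15 genes rose and none fell, but 4 rose without WT1, where the calls of Cdt1, Skp2 and Dtl were lost. The call of Cdt1 was also lost without WT3.

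Mitosis genes rose in G1-S as a group. All 25 tested kinesin, spindle and cytokinesis genes and all 24 kinetochore and checkpoint genes were higher, with medians of 2.45 and 2.04. All 25 of the first list also passed without each preparation in turn. The summed level of the kinesin list was 388, 410 and 509 CPM in G1 and 2087, 2159 and 1895 CPM in G1-S. The spread between preparations within a gate was small beside the gap between the gates.

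Kif11, the motor that separates the spindle poles, stood at 14.3, 16.9 and 22.0 CPM in G1 and at 176, 166 and 156 CPM in G1-S, a log2 change of 3.25 ± 0.19 (edgeR adjusted p = 4e-07). Cdk1, the mitotic kinase, stood at 15.9, 24.6 and 22.7 CPM in G1 and at 135, 120 and 152 CPM in G1-S, a change of 2.71 ± 0.18. Aurkb rose by 3.02 ± 0.21, Ccnb1 by 2.77 ± 0.18, Ndc80 of the outer kinetochore by 2.84 ± 0.19 and Top2a by 2.79 ± 0.18. Among these genes the gates lay far apart in every preparation.

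Some mitosis genes had smaller changes, did not pass or fell. They were chosen after their values were seen. Cdc20, the activator of the anaphase-promoting complex, stood at 14.8, 21.4 and 25.1 CPM in G1 and at 49.6, 57.1 and 64.2 CPM in G1-S, a rise of 1.51 ± 0.17. Ube2c, its ubiquitin-conjugating enzyme, rose by 1.35 ± 0.24, with 22.8% of its exon bases overlapping a gene on the other strand. Pttg1, which encodes securin, at 0.47 and Ccnb2 at 0.55 did not pass. Cdc25b, a phosphatase that activates Cdk1, stood at 106, 64.7 and 58.9 CPM in G1 and at 25.4, 27.1 and 28.2 CPM in G1-S and fell by 1.45 ± 0.20 on the log2 scale (edgeR adjusted p = 0.00023). It was the only one of 19 mitotic cyclin, kinase and switch genes to fall, while 16 rose.

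Neuronal and proneural genes fell. Of 27 neuronal genes 21 fell and none rose, with a median of -1.62, and of 17 Notch pathway and proneural genes 14 fell and none rose, with a median of -1.57. The summed neuronal level was 4246, 2899 and 2557 CPM in G1 and 957, 967 and 736 CPM in G1-S. Every G1-S library lay below every G1 library, and WT1 had the highest G1 level.

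Atoh1, the proneural factor of the dorsal hindbrain and spinal cord, stood at 35.3, 17.9 and 17.6 CPM in G1 and at 1.38, 0.628 and 1.12 CPM in G1-S, a log2 change of -4.49 ± 0.29 (edgeR adjusted p = 5.1e-07). Scrt2, a repressor expressed in newborn neurons, stood at 61.0, 25.5 and 22.7 CPM in G1 and at 1.68, 1.94 and 0.709 CPM in G1-S, a change of -4.52 ± 0.31. Nhlh2, a basic helix-loop-helix factor of early neurons, stood at 225, 167 and 114 CPM in G1 and at 18.4, 19.6 and 11.9 CPM in G1-S, a change of -3.31 ± 0.17. In all 3 genes the gates did not overlap, as in 14.5% of all tested genes with G1-S lower.

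The other genes among the 8 strongest falls included 4 homeobox genes. Lhx1 was at -3.57 ± 0.29, Mnx1 of motor neurons at -3.40 ± 0.33, Lhx4 at -3.28 ± 0.24 and Dbx1 of interneuron progenitors at -3.02 ± 0.24, and Rgs8, a regulator of G protein signalling, was at -3.07 ± 0.26. Neurog2, which drives neuronal differentiation, stood at 78.7, 58.8 and 51.1 CPM in G1 and at 10.6, 8.13 and 11.7 CPM in G1-S, a change of -2.62 ± 0.20. The Notch ligand genes Dll3 at -2.32 and Dll1 at -1.95 fell. The receptor gene Notch1 at -0.39 and the Notch targets Hes1 at 0.17 and Hes5 at -0.64 did not pass.

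Neural progenitor genes were less clear. Of 16 genes 6 fell and none rose, with a median of -0.50. Olig2, of motor neuron and oligodendrocyte progenitors, stood at 11.9, 14.7 and 13.2 CPM in G1 and at 1.08, 3.26 and 3.37 CPM in G1-S, a fall of 2.44 ± 0.32 on the log2 scale. The broad progenitor genes Sox2 at -0.37, Nes at -0.03, Vim at 0.01 and Fabp7 at 0.20 did not pass. Without WT1, and again without WT3, 2 of the 16 passed as lower. Among 10 genes of neural crest and glia, Tfap2b fell by 1.33 ± 0.18 on the log2 scale, while Erbb3, a receptor of Schwann cell precursors, rose by 0.80 ± 0.16.

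Heart muscle genes rose. Of 20 cardiac genes 19 were tested, 14 rose and none fell, with a median of 2.24. Their summed level was 298, 498 and 581 CPM in G1 and 1291, 4140 and 2450 CPM in G1-S, with WT2 the highest in G1-S. Myl2, the ventricular myosin light chain, stood at 0.722, 2.80 and 1.43 CPM in G1 and at 17.5, 55.9 and 21.8 CPM in G1-S, a log2 change of 4.27 ± 0.25 (edgeR adjusted p = 4e-07). Myh6, the atrial myosin heavy chain, stood at 5.21, 14.7 and 24.1 CPM in G1 and at 84.4, 311 and 205 CPM in G1-S, a change of 3.84 ± 0.24, and Mybpc3, myosin-binding protein C, rose by 3.82 ± 0.22. The genes that rose encode sarcomere, calcium-handling and natriuretic proteins and the factor Nkx2-5. The factor genes Gata4 at -0.10, Tbx5 at -0.23, Hand2 at -0.31 and Tbx20 at 0.53 did not pass.

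Macrophage, vessel and platelet markers were also higher. Of 22 macrophage genes 20 were tested, 9 rose and none fell, with a median of 1.12. C1qa, a chain of the first complement component, stood at 1.89, 2.38 and 2.36 CPM in G1 and at 7.99, 7.86 and 12.1 CPM in G1-S, a rise of 2.06 ± 0.30 (edgeR adjusted p = 0.00036). The list's summed level was 117 to 164 CPM in G1 and 265 to 370 CPM in G1-S, without overlap. The general leukocyte gene Ptprc at 0.69 did not pass. None of 20 lysosome and engulfment genes passed, with a median of 0.15.

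Of 17 endothelial genes 11 rose and none fell, with a median of 0.90. Flt1, a VEGF receptor, stood at 13.8, 35.9 and 33.1 CPM in G1 and at 28.8, 85.8 and 70.6 CPM in G1-S, a log2 change of 1.15 ± 0.16 (edgeR adjusted p = 0.00032). WT1 was lowest in both gates, so the gates overlapped although the gene was higher in G1-S in each preparation. This list rests on the pairing: without the term for the preparation 1 of its genes rose. Of 10 megakaryocyte genes 4 rose, with Pf4 at 1.17 ± 0.32, and 1 rose without that term. By mean level over the sorted gates all 10 were highest in G0. Their summed level was 64.1, 101 and 240 CPM in G0, against 51.3, 65.8 and 102 CPM in G1-S.

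Muscle and liver markers were called in few genes. Of 16 tested skeletal muscle genes 3 rose, Acta1, Cdh15 and Des, of which Acta1 and Des are also made in heart. Of 15 tested hepatocyte genes 3 rose, Afp at 1.62 ± 0.25, Fgb at 1.61 ± 0.43 and Apob at 0.88 ± 0.24, and none did so without the term for the preparation. The summed hepatocyte level was low, 18.6 to 44.3 CPM in G1 and 40.1 to 156 CPM in G1-S, with its highest value in WT3. Of 20 mesenchyme genes none passed, with a median of 0.26.

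Red cell genes depended on 1 library. Of 20 tested erythroid genes 1 fell, Tal1, and none rose, with a median of -0.59. The summed erythroid level was 3540 CPM in the G1 library of WT1, against 647 and 1085 CPM in those of WT2 and WT3, and 1046, 744 and 1105 CPM in G1-S. The median change was -1.84 in WT1, 0.28 in WT2 and -0.40 in WT3. Tal1, a factor of blood progenitors, stood at 42.5, 23.0 and 18.3 CPM in G1 and at 8.17, 13 and 10.9 CPM in G1-S, a log2 change of -1.28 ± 0.29 (edgeR adjusted p = 0.011) that was lost without WT1. Without WT2 14 erythroid genes fell. Near-identical globin copies can share reads.

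**Figure D3:**
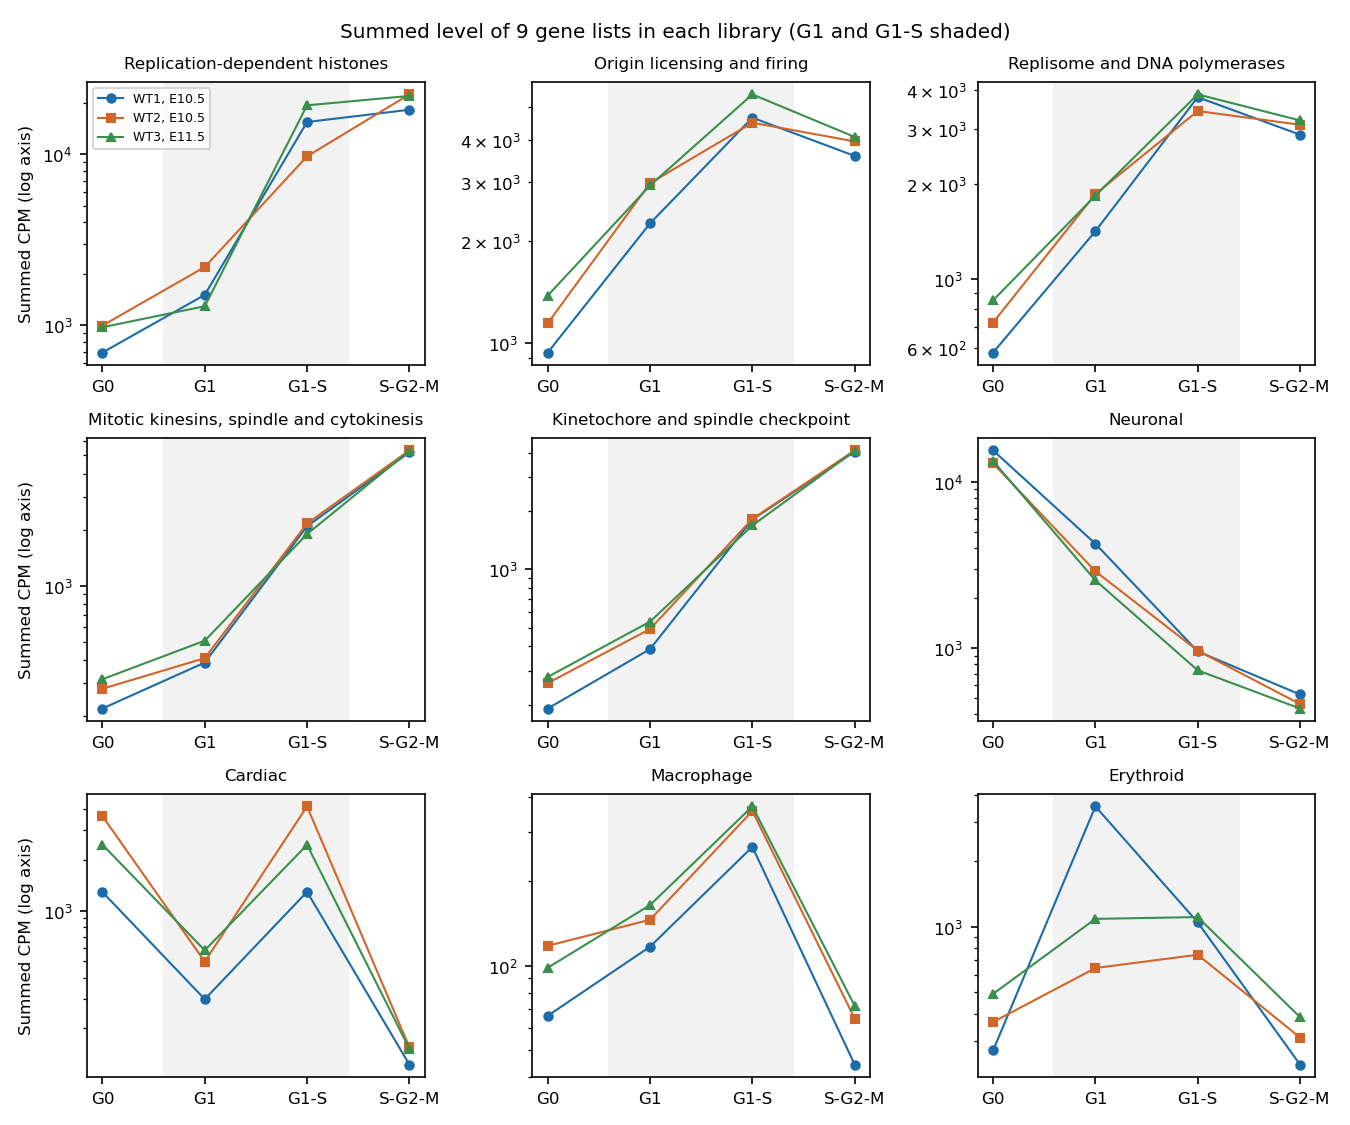
Summed CPM of 9 gene lists in the 4 sorted gates (x axis) on a log axis, with 1 line for each preparation and the G1 and G1-S gates shaded. Histone and mitosis lists climb from G1 to G1-S to S-G2-M, licensing and replisome lists peak in G1-S, the neuronal list is lower in each gate from G0 to S-G2-M, cardiac and macrophage lists drop from G1-S to S-G2-M, and the erythroid point of WT1 in G1 (3540 CPM) stands above the others.

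The change also varied with transcript length, and not in the same direction in each preparation. Among 308 protein-coding genes with a mean of at least 8 CPM and a longest annotated transcript of up to 1000 bases, the median change was 0.38 in WT1, -0.41 in WT2 and 0.74 in WT3. Among 4738 genes with transcripts over 4000 bases it was -0.09, 0.05 and -0.10. Short-transcript genes thus lay below long ones in WT2 and above them in the other 2 preparations.

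Cytosolic ribosomal protein genes, with a median transcript of 1059 bases, showed the same split. They had a median change of 0.37 in WT1, -0.38 in WT2 and 0.72 in WT3. Of 83 tested 2 rose, Rpl3 and Rpl12, whereas 54 rose without WT2 and none without WT1 or without WT3. The histone genes are short as well, and their median change was lowest in WT2. Mitochondrially encoded genes, with a median of 784 bases, did not show the split, at -0.09 in WT1, 0.08 in WT2 and 0.34 in WT3. When the median of each of 10 classes of genes by transcript length was removed from each library, an alternative chosen after seeing this pattern, 55 histone genes still rose with a median of 3.22, all 25 replisome genes rose, 15 cardiac genes rose and 22 neuronal genes fell. The part of fragment length or RNA quality in this split was not tested.

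**Figure D4:**
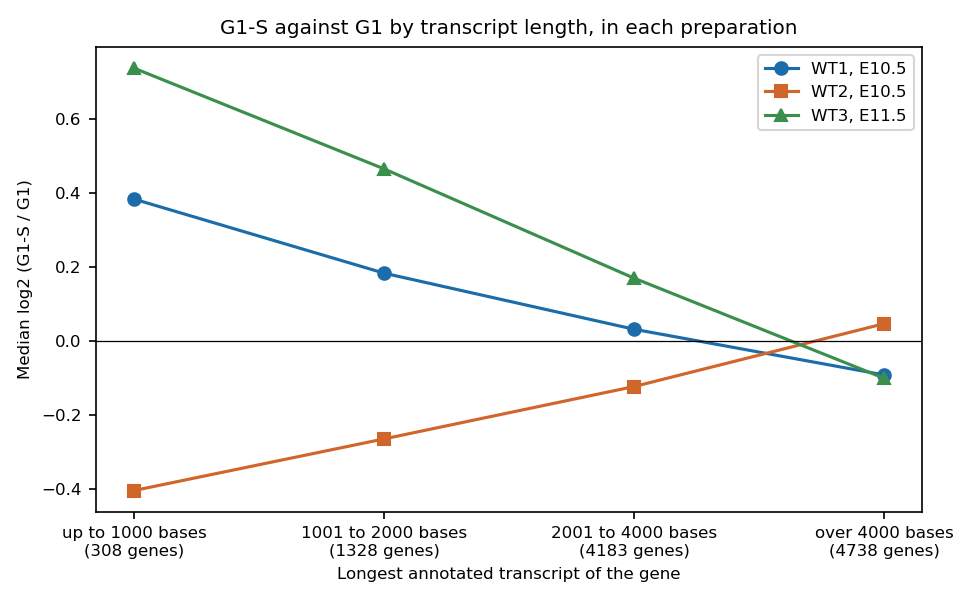
Median log2 change from G1 to G1-S (y axis) over protein-coding genes in 4 classes of longest annotated transcript (x axis), with 1 line for each preparation. WT1 and WT3 fall from 0.38 and 0.74 for the shortest class to -0.09 and -0.10 for the longest, while WT2 climbs from -0.41 to 0.05.

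The same G1-S libraries were set against the S-G2-M gate, to place the groups that rose beside that gate as well. The gates are separately sorted sets of mixed cells and do not follow the same cells in time. The comparisons share the G1-S libraries and are not independent, so their values are given side by side. Of 22301 genes tested 4010 (18.0%) differed, 2440 higher (10.9%) and 1570 lower (7.04%) in G1-S. All 25 kinesin and spindle genes were lower in G1-S than in S-G2-M, with a median of -1.34, as were 20 of 24 kinetochore genes. Kif11 had 459, 483 and 468 CPM in S-G2-M, a log2 difference of G1-S from S-G2-M of -1.43 ± 0.11. Of 60 histone genes 24 were lower in G1-S and none higher, with a median of -0.51. All 25 kinesin and spindle genes, 20 of 24 kinetochore genes and 13 of 19 mitotic cyclin, kinase and switch genes passed as above G1 and below S-G2-M. The same held for 197 of the 21601 genes tested in both comparisons. In the mitotic cyclin, kinase and switch list 1 gene passed as above both gates and 1 as below both. Of 10 condensin genes 2 passed as above both. Among the 21601 genes 387 passed as above both gates and 87 as below both.

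Under 50% of the genes of the start of S phase passed as higher in G1-S than in both G1 and S-G2-M: 11 of 26 licensing, 12 of 25 replisome and 5 of 14 deoxynucleotide supply genes. Over all genes tested in both comparisons this held for 387 of 21601. By mean level over the sorted gates, 19 of 26 licensing and 18 of 25 replisome genes were highest in G1-S, against 4430 of 22083 genes tested. The other 7 licensing and 7 replisome genes were highest in S-G2-M. Ccne2, at 46.5, 51.6 and 56.3 CPM in S-G2-M, differed by 1.79 ± 0.11 (edgeR adjusted p = 8.3e-08). E2f1, which did not pass against G1, was higher than in S-G2-M by 1.09 ± 0.12, and E2f2, E2f7 and E2f8 were higher by 1.35 ± 0.13, 0.92 ± 0.11 and 0.95 ± 0.12. Foxm1 was lower, with a log2 difference of -0.73 ± 0.11.

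Of the genes tested in both comparisons, 14 of 19 cardiac, 11 of 17 endothelial and 9 of 20 macrophage genes passed as higher in G1-S than in both G1 and S-G2-M. The summed cardiac level in S-G2-M was 122, 155 and 152 CPM, below both the G1 and the G1-S libraries. In the G0 gate of the same preparations it was 1287, 3624 and 2456 CPM, close to the 1291, 4140 and 2450 CPM of G1-S, so a high cardiac level was not particular to G1-S. Cdkn1a, which did not pass against G1, was higher in G1-S than in S-G2-M by 2.12 ± 0.29 (edgeR adjusted p = 0.00014). Cdkn1c was higher by 1.27 ± 0.11. Of 20 erythroid genes 15 were higher in G1-S than in S-G2-M and none lower. Neuronal genes, lower than in G1, were above S-G2-M in 20 of 26 tested.

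The change from G1 to G1-S was also compared with that of preparations 5 and 8 at E13.5. Embryonic day cannot be told apart from other differences between these sets: the E13.5 libraries have another title form and 2 lane columns each in place of 6 to 8, and 1.77% to 3.42% of their counts were mitochondrially encoded. The interaction test over 10 libraries found a different change in 616 of 23418 genes (2.63%), 438 of them higher (1.87%) and 178 lower (0.760%) at E13.5. Genes that rose at E10.5 and E11.5 had median changes of 1.30, 1.03 and 1.16 in WT1, WT2 and WT3 and of 1.24 and 1.17 in preparations 5 and 8. Genes that fell had -1.42, -0.94 and -1.18, against -0.48 and -0.34 at E13.5. The genes were chosen on WT1 to WT3, so the sizes there are in part fixed by that choice.

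Mitosis genes rose further at E13.5. For 23 of 25 kinesin and spindle genes, 14 of 19 mitotic cyclin, kinase and switch genes and 13 of 24 kinetochore genes the change was higher at E13.5 past the test, and for none lower. Cdc20 stood at 7.82 and 8.39 CPM in G1 and at 102 and 116 CPM in G1-S of preparations 5 and 8, and its change exceeded that at E10.5 and E11.5 by 2.26 ± 0.22 (edgeR adjusted p = 0.0002). Ube2c had a difference of 2.62 ± 0.27, Ccnb1 of 2.12 ± 0.22 and Cdc25b, which fell at E10.5 and E11.5, of 2.0 ± 0.28. None of 25 replisome genes and 1 of 26 licensing genes differed past the test. The differences of E2f1 at 0.55 ± 0.20, E2f8 at 0.20 ± 0.29 and Ccne1 at 0.13 ± 0.24 did not pass.

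The fall of neural genes was smaller at E13.5. For 20 of 27 neuronal and 12 of 17 Notch and proneural genes the change was higher at E13.5, and for none lower. Nhlh2 changed by -0.96 and -0.30 in preparations 5 and 8, a difference from WT1 to WT3 of 2.71 ± 0.25 (edgeR adjusted p = 0.00015). Lhx1 changed by -0.42 and 0.03, a difference of 3.39 ± 0.41. The median of the neuronal list was -2.13, -1.23 and -1.70 in WT1 to WT3 and -0.25 and 0.03 in preparations 5 and 8. Without WT1 218 genes differed between the sets, 87.6% of them with a higher change at E13.5, and without WT2 1461, 58.8% of them higher.

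**Figure D5:**
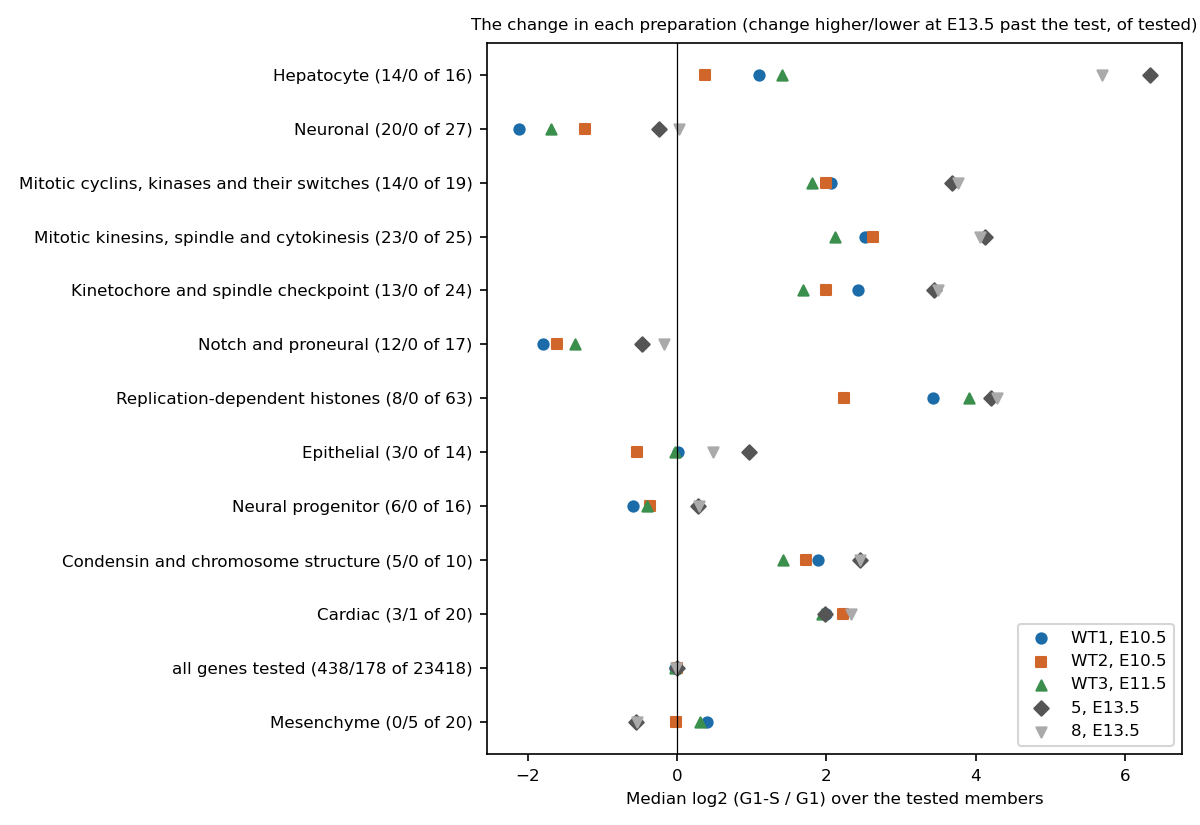
Median log2 change from G1 to G1-S (x axis) for gene lists in which at least 3 genes differed between the sets of preparations, with 1 point for each of the 5 preparations. In brackets are the genes whose change was higher and lower at E13.5 past the test, of those tested. Hepatocyte and mitosis lists lie further right in preparations 5 and 8, and neuronal and proneural lists lie near 0 there but to the left in WT1 to WT3.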

How the data were processed

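RNA was sequenced from sorted embryo cells. The deposited table holds raw counts without normalization, as whole reads for 52550 genes in 130 lane columns. STAR 2.5.3, HTSeq 0.8.0 and the build mm10 are named in the submitters' processing notes. The sources used here do not give the annotation, the kit or any use of strand in counting, so reads of overlapping genes on opposite strands cannot be told apart.

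Lane columns were matched to a gate by the phase label and to a preparation by the title prefix. Within a library of WT1 to WT3 the lanes had an index of dispersion of 1.09 to 1.21 where at least 5 counts were expected for a gene, under the limit of 1.5, against 20.6 to 231 between preparations of a gate, so lanes were summed and each library counted once. The replicate was the preparation. A gene at 0 in a library can have up to 3 counts expected there, which covers counting error only.

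The main test was edgeR 4.0.16 (limma 3.58.1, R 4.3.3): filterByExpr with minimum count 10 and minimum total 15, TMM scaling, preparation and gate as terms, robust dispersion, the quasi-likelihood F test and Benjamini-Hochberg adjustment over all genes tested with a threshold of 0.05. The fit held only the 6 libraries of the comparison; the S-G2-M comparison held 6 and the comparison with E13.5 10. The SE of a log2 change is its size over the square root of F. Changes in each preparation are log2 ratios of CPM with a pseudocount of 0.1. The tests were tried on simulated counts. Alternatives were no term for the preparation, another scaling (RLE), no filter, DESeq2 1.42.0, a 2-fold minimum, a fit of all 15 libraries of WT1 to WT3, omission of 2 genes with ribosomal RNA-like sequence, and omission of each preparation. Levelling of transcript length classes was added after seeing the data.

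The comparison and the 34 gene lists were chosen with earlier results of these data known. Named genes are the 8 highest and 8 lowest changes past the test that had the same direction in every preparation and a mean log2 CPM from 3 upward, leaving out predicted and small RNA genes, from each list up to 3 called members that rose and up to 3 that fell, given a mean log2 CPM not below 0, all E2F, G1 cyclin, CDK inhibitor and reporter-logic genes, and the 5 highest and 5 lowest differences at E13.5. Other list members are named with their values and were chosen after these were seen. List members not tested, for low counts, were Cdkn2a, Gdf15, Tnfrsf23, Nppa, Tnnc2, Ahsg, Cd163, Timd4, Hba-a2, Rpl10l, Rpl39l, mt-Atp8, mt-Nd4l and 8 histone genes. Overlaps came from GENCODE M21 on GRCm38, where 52403 identifiers matched. Promoters were matched for 534 of 692 list genes. Results for a few list members are not reported here.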

Additional observations from a re-analysis of the deposited data

Results flagged for a closer look

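The change from G1 to G1-S differed between the sets of preparations by the interaction test in edgeR. It was higher at E13.5 in 438 genes and lower in 178. In this design embryonic day cannot be told apart from the title form, the number of lanes and the mitochondrial share of the libraries.

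Liver genes made up the 5 largest differences. Alb, which encodes serum albumin, stood at 0.201 to 2.16 CPM in G1 and 0.601 to 4.55 CPM in G1-S of WT1 to WT3, and at 4.71 and 3.20 CPM in G1 against 755 and 557 CPM in G1-S of preparations 5 and 8. Its change differed by 6.47 ± 0.28 on the log2 scale (edgeR adjusted p = 2.4e-07). Alb reached the required mean level through the G1-S libraries of preparations 5 and 8, so its place in this ranking rests on them. In WT1 to WT3 the whole hepatocyte list summed to 18.6 to 44.3 CPM in G1 and 40.1 to 156 CPM in G1-S. The places of Apoa1, Fgg, Fga and Fgb may therefore rest on the same E13.5 libraries. The differences were 6.22 for Apoa1, an apolipoprotein gene, and 6.18 for Fgg, 6.16 for Fga and 6.16 for Fgb, the fibrinogen chains. In WT1 the G1 levels of Fga and Fgg were 0.0401 CPM each, below the level of 0.131 CPM that 3 counts give there, so the sizes of these 2 differences are uncertain. Of 16 hepatocyte genes 14 had a higher change at E13.5 and none a lower one. The 16 include Ahsg, which had too few counts to be tested at E10.5 and E11.5 alone.

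Matrix genes led the differences in the other direction. Aspn, Ogn and Ecm2, genes of small leucine-rich or related matrix proteins, had differences of -3.60, -3.09 and -2.81. Acan, the cartilage proteoglycan gene, had -2.49 and Slc16a4, a carboxylate transporter gene, -2.35. Aspn stood at 2.05, 1.52 and 2.36 CPM in G1 and at 15.9, 13 and 7.32 CPM in G1-S of WT1 to WT3, and at 26.0 and 23.4 CPM in G1 against 14.1 and 10.1 CPM in G1-S at E13.5.

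Aspn, Ogn and Ecm2 all lie within the span of Cenpp, a kinetochore gene on the other strand (GENCODE M21, chr13:49464023-49652785). At E10.5 and E11.5 Cenpp rose from G1 to G1-S by 1.70 ± 0.26, while Aspn rose by 2.58 ± 0.34, Ecm2 by 2.41 ± 0.30 and Ogn by 1.78 ± 0.22. The change of Cenpp did not differ past the test at E13.5 (0.69 ± 0.38, edgeR adjusted p = 0.54). Whether reads of Cenpp were counted in these genes was not tested.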

How the results depend on the processing

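Against the main count of 1693 genes between G1-S and G1, the 2-fold minimum gave 355 and the fit of all 15 libraries 2906, and leaving out 1 preparation gave 734 to 4812. Against 4010 genes between G1-S and S-G2-M, the 2-fold minimum gave 462 and leaving out 1 preparation 2490 to 4332. Against 616 genes whose change differed at E13.5, no filter gave 1216 and leaving out 1 preparation 163 to 1461. All other alternatives run for these counts stayed within 1.5 times of them. The share of calls that were higher was 57.2% for G1-S against G1 and 69.9% with the 2-fold minimum. Against S-G2-M it was 60.8%, with 85.9% at the 2-fold minimum and 73.9% without WT1. For the difference at E13.5 it was 71.1%, with 88.6% without preparation 5, 87.1% without 8, 87.6% without WT1 and 58.8% without WT2. The preparations did not clearly pair the libraries: deviations from the gate means correlated by 0.335 in WT1, -0.179 in WT2 and 0.041 in WT3. The highest correlation, 0.405, was between different preparations, G1 of WT2 and G1-S of WT3. The paired fit was used because the comparison was defined by preparation. With no replicate block 1499 genes passed, of which 1392 were among the 1693, and 548 of the differences at E13.5 and 3013 of those against S-G2-M passed. No named gene reversed a call under any alternative. Of 141 named genes tested between G1-S and G1, 15 lost their call without the block (among them Flt1, Egfl7, Emcn, Afp, Apob and Pf4), 28 without WT1, 2 without WT2 and 19 without WT3, and levelling transcript length lost none. Under the 2-fold minimum, which asks for a larger change, 52 of the 141 lost their call. In the fit of all 15 libraries 2 did so. In 13 of 167 tests of named genes, with no pass in either fit, the sign changed in some alternative, E2f4 and Cdkn1a included. With 3 preparations a gate, changes near 1.5-fold can be missed. The cause of the dependence on WT1 and WT2 was not tested.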

Other observations

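A few groups outside the cell cycle and the cell types above were measured in the same comparison. Of 18 tested p53 target genes 1 fell and none rose, with a median log2 change of 0.04. Over all genes tested 3.28% fell, so 1 call in a list of this size says little about the list. The gene that fell, Trp53inp1, a stress-induced regulator of p53 and autophagy, stood at 126, 134 and 124 CPM in G1 and at 54.4, 55.9 and 55.9 CPM in G1-S, a change of -1.20 ± 0.15 (edgeR adjusted p = 0.0001). Its gates did not overlap, as in 14.5% of all tested genes with G1-S lower, and the preparations lay close together within each gate. Of 16 genes that respond to tissue dissociation 1 fell, Btg2, at 148, 135 and 81.5 CPM in G1 and 58.6, 48.4 and 34.8 CPM in G1-S. Btg2 is also known as an antiproliferative gene of neurogenic progenitors, so it is not specific to that response.

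Replacement histone genes encode variants that can be deposited outside replication. Of 10 genes 2 rose and none fell, with a median of 0.16. H2afx, the variant phosphorylated at DNA breaks, stood at 24.1, 28.7 and 28.0 CPM in G1 and at 77.3, 61.6 and 91.3 CPM in G1-S, a rise of 1.5 ± 0.18 (edgeR adjusted p = 5.3e-05), and its change at E13.5 was higher by a further 2.04 ± 0.22. H2afz rose by 0.70 ± 0.19, a call lost without WT1 and without WT3. Of 14 epithelial genes Krt14 and Trp63, both of the basal epidermis, fell by 1.42 ± 0.37 and 0.85 ± 0.22 on the log2 scale, and neither passed without WT1.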
